A study of Mus musculus with 12 samples.

Results

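The cytosolic ribosomal protein genes were examined in 4 lines of mouse embryonic fibroblasts (MEFs), with 3 RNA-seq libraries per line and 12 in all. The members were taken from the gene count matrix by symbol, as Rps or Rpl followed by a number, or as Rpsa, Rplp0, Rplp1 or Rplp2, with a mean of at least 10 counts over the 12 libraries. Of 24453 genes in the matrix, 82 carried such a symbol and 78 passed the minimum, 31 of the small (40S) subunit and 47 of the large (60S) subunit. The 4 genes below the minimum were the paralogs Rpl10l, Rpl39l, Rpl3l and Rps4l, with means of 0, 0.083, 0.917 and 1.67 counts, and the lowest member was Rps27 with 206 counts, followed by Rpl32l with 1901. The symbols of mitochondrial ribosomal proteins begin differently, so none of those genes is a member.

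All lines descend from TM6, C57BL6/J MEFs immortalized with SV40 large T antigen whose label genotype is Pnpt1 neo-flox/neo-flox, with loxP sites flanking part of Pnpt1, the gene of the mitochondrial RNA-degrading enzyme PNPase. TM6 cells received no treatment. The rho0 MEFs, which lack mitochondrial DNA (mtDNA), were TM6 cells cultured with the DNA-binding drug ditercalinium at 750 ng/mL for 3 weeks and regrown from a single colony. PKO-1 and PKO-6 are 2 clones, each regrown from a single TM6 cell after an adenovirus had delivered Cre recombinase to delete the floxed part of Pnpt1, and PKO denotes both clones together. The study's own assays found no mtDNA in the PKO clones either, so they differ from TM6 in mtDNA as well as in Pnpt1, which cannot be told apart here. The count matrix holds 0 mtDNA-encoded genes, so the mtDNA state of no line could be checked in it. Every line was grown with 50 µg/mL uridine. Each of rho0, PKO-1 and PKO-6 is therefore 1 clone, and its 3 replicates are cultures of that clone, so a difference from TM6 cannot be told apart from a difference of that clone that is unrelated to mtDNA or PNPase.

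A ribosome is built from ribosomal RNA and one copy of nearly every ribosomal protein, so the cell makes these proteins in matched amounts. Their mRNAs are short and very abundant, and most begin with a run of pyrimidines, the 5′ terminal oligopyrimidine (TOP) motif, through which the kinase complex mTORC1 and the RNA-binding protein Larp1 control their translation and stability. Transcription of the genes is promoted by Myc, among other factors, and the proteins are assembled with rRNA in the nucleolus.

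The libraries held 47164860 to 67991378 estimated counts, which the authors had made with RSEM from paired reads of rRNA-depleted RNA. Of these, 12.2% to 19.6% lay on Rn45s, the rRNA precursor. Normalized counts below are counts scaled by edgeR's TMM method to the mean library. Normalized counts of Pnpt1 itself were 2832 to 3319.6 for TM6 and 5051 to 5509 for rho0, against 1191 to 1276 in PKO-1 and 1720.4 to 2213 in PKO-6 (PKO-1 against TM6, log2 fold change -1.34 ± 0.086, adjusted p = 1.25e-08, and PKO-6 against TM6, log2 fold change -0.69 ± 0.084, adjusted p = 5.53e-06, edgeR quasi-likelihood test). The deletion leaves most exons in the transcript, so counts need not reach 0. Of 13 fibroblast markers, 10 to 12 had a mean of at least 10 normalized counts in each line. Thy1 was at 3 or fewer in every rho0, PKO-1 and PKO-6 library, and Lum was at 3 or fewer in every rho0 library. The lists of epithelial, endothelial, blood and neural markers each summed to at most 842 normalized counts in any library, where the fibroblast list summed to 361081 to 673643. Mean fragment length, from the difference between transcript and effective lengths, was 179.8 to 192 bases in TM6, 175 to 189 in rho0, 179 to 199 in PKO-1 and 174 to 195 in PKO-6.

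Ribosomal protein mRNAs took a larger share of counts in every rho0 library than in any TM6 library. Leaving Rn45s out of the total, the 78 genes held 4.60%, 4.64% and 4.53% of the counts in the TM6 libraries. They held 6.43%, 5.50% and 5.68% in rho0, 4.77%, 4.99% and 4.46% in PKO-1 and 5.22%, 5.17% and 4.87% in PKO-6. All rho0 libraries and all PKO-6 libraries lay above the TM6 range, whereas the PKO-1 libraries lay on both sides of it, which is a description without a test. The line means were 4.59% ± 0.0559 (SD, n = 3) in TM6, 5.87% ± 0.494 in rho0, 4.74% ± 0.265 in PKO-1 and 5.09% ± 0.187 in PKO-6. By the deposited TPM, which divides by transcript length, the shares were 13.3% ± 0.132 in TM6, 15.7% ± 0.614 in rho0, 13.2% ± 0.468 in PKO-1 and 13.4% ± 0.145 in PKO-6. All rho0 libraries were again above TM6, but the PKO-6 libraries (13.3 to 13.5%) overlapped TM6 (13.2 to 13.4%). Within rho0, replicate 1 had both the highest share of counts and the shortest fragments (174.8 bases), and within PKO-6 replicate 3 had the lowest share of counts and the longest fragments (195.1 bases); the part of fragment length in these shares was not tested. These are shares of a library, and in bulk RNA more mRNA per cell cannot be told apart from a different mix of cells or from less of the other mRNAs.

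**Figure D1:**
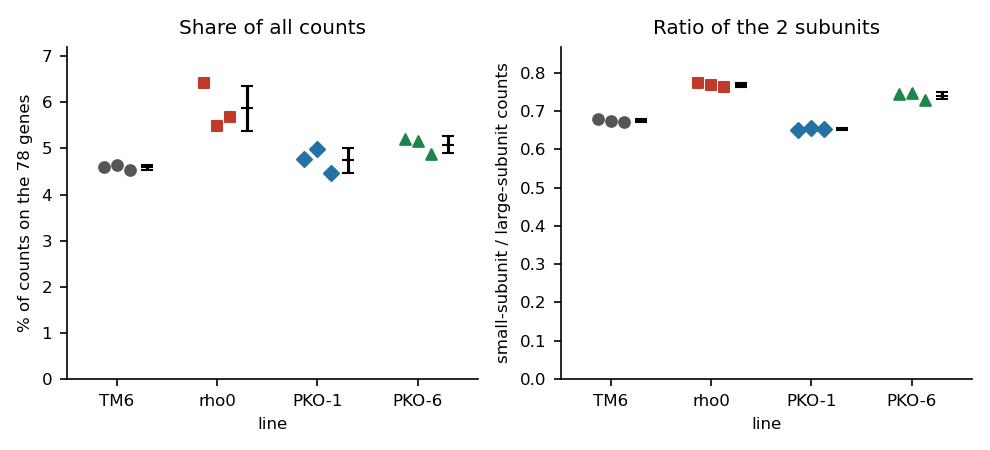
Left, percent of all counts (Rn45s left out) on the 78 ribosomal protein genes in each of the 12 libraries, by line; right, counts on small-subunit genes divided by counts on large-subunit genes. Points are libraries, bars are the line mean ± SD (n = 3); rho0 libraries are highest in both panels.

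The summed counts of the 2 subunits did not move equally. Counts on small-subunit genes divided by counts on large-subunit genes were 0.672 to 0.679 in TM6, 0.651 to 0.655 in PKO-1, 0.729 to 0.747 in PKO-6 and 0.763 to 0.774 in rho0. The 4 ranges did not overlap. A ratio of sums is weighted toward abundant genes. Rpsa, a small-subunit gene, had 89013 to 97008 normalized counts in TM6 and 55631 to 64244 in PKO-1. The part of this 1 gene in the lower ratio of PKO-1 was not tested, so that ratio need not reflect the whole subunit. In rho0 against TM6, the median log2 fold change was 0.37 over the 31 small-subunit genes and 0.19 over the 47 large-subunit genes, and 25 and 29 of them lay above 0. In PKO-6 against TM6 the medians were 0.084 and 0.0097, and in PKO-1 against TM6 they were 0.09 and 0.15. These medians are descriptions without a test.

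Per kilobase of transcript, the members ranged over 2 orders of magnitude, down to Rps27, although their proteins are needed in nearly equal numbers. The level of Rps27 is uncertain, and without it the means over the 12 libraries ran from 2496 (Rps15a) to 222804 (Rps12). The low level of Rps15a depends on the effective length by which its counts are divided. It had 10051 to 15497 normalized counts, above the 1292 to 3030 of Rpl30, whose level per kilobase was 6045. Whether the annotated length of Rps15a holds in these cells was not tested. The median member had 45093 normalized counts per kilobase of effective length in TM6, 50831 in rho0, 44508 in PKO-1 and 43199 in PKO-6. By the deposited TPM, 39 of the 100 most abundant genes in TM6 were members, as were 47 in rho0, 40 for PKO-1 and 42 for PKO-6. The highest per-length levels over all libraries belonged to Rps12, a protein of the 40S beak, and Rpl41, which encodes the smallest ribosomal protein. Rps2, which lines the mRNA entry channel, Rps26, at the mRNA exit, and Rpl32 followed. Rps12 reached 169168 ± 6720.4 counts per kilobase (SD, n = 3) in TM6, 270364 ± 15407 in rho0, 194012 ± 10973 in PKO-1 and 257671 ± 13437 in PKO-6. Rpl41 had 234392 ± 5677, 203660.3 ± 26730.0, 216718 ± 16641 and 232719 ± 20532 in the same order of lines. The 2 genes exchanged the first place between lines, with Rpl41 first in TM6 and PKO-1 and Rps12 first in rho0 and PKO-6, and over the 12 libraries they differed by less than their SDs.

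The lowest per-length levels were those of Rps27, Rps15a, Rpl32l, Rpl34 and Rpl30. Normalized counts of Rps27 were 422, 168 and 173 in TM6, 171, 139.6 and 289 in rho0, 179, 186 and 187 in PKO-1 and 176, 182 and 171 in PKO-6. Its level is uncertain, because 40.1% of the 100-base words of its GENCODE transcripts also occur in Rps27rt, a near-identical gene on the same chromosome to which reads can be assigned instead. RSEM also placed 100% of the Rps27 counts on a noncoding transcript, except in TM6 replicate 1 (43.9%) and rho0 replicate 3 (52.2%). Rpl32l is a copy of Rpl32 and had 1364 to 2664 normalized counts, and its overlap with Rpl32 was not measured because no transcript of it was in the set of words. The order of levels per length from Rps12 to Rps27 was the same for these 10 genes with the deposited TPM. Both measures divide the same counts by the same effective lengths, so this is not a separate check.

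**Figure D2:**
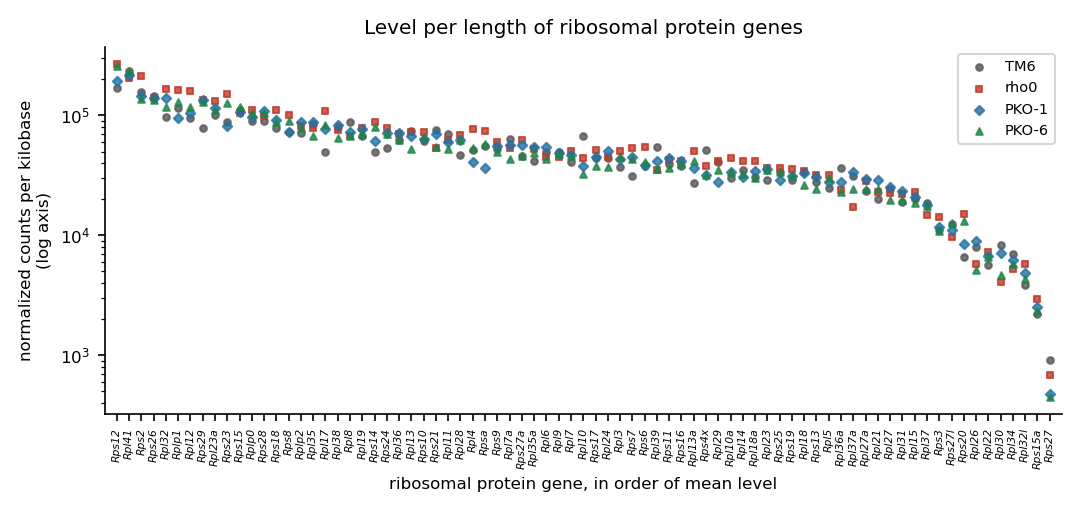
Normalized counts per kilobase of effective length (log axis) of the ribosomal protein genes, all but 1 of 78, ordered by their mean over 12 libraries, with 1 point per line (mean of 3 libraries). The lower and upper quartiles in TM6 are 29099.6 and 72799.5, Rps12 or Rpl41 leads and Rps27 is last in every line.

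The comparison of rho0 with TM6 MEFs asked which members differ in cells that have lost mtDNA. Called below means an adjusted p below 0.01 (edgeR's quasi-likelihood test, Benjamini-Hochberg over 14026 genes) and an absolute log2 fold change above 0.5. In rho0, 18 of 78 members (23.1%) were called higher, where 13.7% of all tested genes were, and 5 (6.41%) were called lower, where 15.6% of all tested genes were. The members' median log2 fold change was 0.24 beside 0.018 over all tested genes, and 54 members lay above 0. Without rho0 replicate 1 the members' median was 0.12. At an adjusted p below 0.01 alone, with no fold threshold, 35 members passed (44.9%, beside 35.7% of all tested genes), 28 higher (35.9%, beside 17.1%) and 7 lower (8.97%, beside 18.6%).

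Rps20, a protein of the 40S head, was called with the largest fold change (chr4:3831584-3835655, mm10). Its normalized counts were 22251, 21943 and 20657 in the TM6 libraries and 57389.7, 44251 and 44754 in the rho0 libraries. The lowest rho0 library lay farther above TM6 than the rho0 libraries lay from each other (log2 fold change 1.17 ± 0.23, adjusted p = 0.00122). Rpl17, which lines the exit tunnel for nascent peptides, had 26821, 30164 and 30717 in TM6 and 67731, 60752 and 64539 in rho0 (log2 fold change 1.14 ± 0.10, adjusted p = 4.41e-06). Every rho0 library held more than the highest TM6 library. Rpl13a, a large-subunit protein that can also leave the ribosome to repress inflammatory mRNAs, went from 23506, 23262 and 22058 to 49343, 38134 and 40041 (log2 fold change 0.89 ± 0.12, adjusted p = 8.04e-05). Rps14, of the 40S platform, went from 21273, 20146 and 19439 to 43201, 32210.3 and 33267 (log2 fold change 0.84 ± 0.18, adjusted p = 0.00246). Replicate 1 was the highest rho0 library for each of these 4 genes. The call of Rps14 was lost without TM6 replicate 2 or 3 or without rho0 replicate 1 (log2 fold change 0.68 to 0.83, adjusted p 0.0113 to 0.0122).

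Rpl32 rose from 30626, 31224 and 30575 to 61780.4, 48019.6 and 50504 (log2 fold change 0.79 ± 0.12, adjusted p = 0.000243). Rps7, needed for the maturation of 40S rRNA, rose from 23722, 24776 and 24734 to 47411, 38446 and 40178 (log2 fold change 0.78 ± 0.084, adjusted p = 2.08e-05). For both genes the groups were separate by more than the spread within either. Rps29, a zinc-binding protein of the 40S head, had 17037, 16673 and 15144 in TM6 and 34306, 24199 and 24952 in rho0 (log2 fold change 0.77 ± 0.15, adjusted p = 0.00116). Rps12 had 54804, 57119 and 56987 in TM6 and 98001, 83783 and 89893 in rho0 (log2 fold change 0.69 ± 0.15, adjusted p = 0.00234), and its call was lost without TM6 replicate 1 or rho0 replicate 1 (log2 fold change 0.61 to 0.65, adjusted p 0.0110 to 0.0119). Rps23, which forms part of the decoding centre, had 31999, 33027 and 32739.6 in TM6 and 62980.5, 51028 and 54066 in rho0 (log2 fold change 0.78 ± 0.20, adjusted p = 0.00758). The rho0 libraries were all above TM6, but leaving out any 1 TM6 or rho0 library ended the call (log2 fold change 0.67 to 0.82, adjusted p 0.0156 to 0.0312), as did the fit with a replicate block (adjusted p = 0.0189). The fit of rho0 pools the PKO clones, so their difference counts as spread, and Rps23 was called between the clones. Also called higher were Rpl12, Rpl32l, Rpl4, Rpl28, Rpl10a, Rps24, Rps18 and Rps6, listed after their values were seen, with log2 fold changes between 0.53 and 0.78. Among them, Rpl32l lost the call without TM6 replicate 2 or 3 or rho0 replicate 1 or 2 (log2 fold change 0.47 to 0.60, adjusted p 0.0127 to 0.0243).

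The 5 members called lower in rho0 were all of the large subunit. Rpl30 (chr15:34440508-34443276), which bridges the 2 subunits, fell from 2831, 2992 and 3030.4 in TM6 to 1618, 1470.3 and 1292 (log2 fold change -1.02 ± 0.19, adjusted p = 0.00103). Every rho0 library was below every TM6 library, by more than the spread within either line. Rpl37a, a zinc-binding protein, went from 12856, 12507 and 12278 to 8283, 6148 and 6387 (log2 fold change -0.85 ± 0.18, adjusted p = 0.00257). Its groups did not overlap, and the call was lost without rho0 replicate 2 or 3 (log2 fold change -0.82 to -0.80, adjusted p 0.0120 to 0.0125). The remaining 3 were the X-linked Rpl39, of the exit tunnel, Rpl36a, of the exit site for tRNA, and Rpl10, which joins the 60S subunit last and completes it. Rpl39 had 12655, 14104 and 14020.4 in TM6 and 10083, 8119.6 and 8366 in rho0 (log2 fold change -0.62 ± 0.12, adjusted p = 0.00113). Rpl36a went from 10178, 11673 and 11564 to 8099, 6666 and 7022 (log2 fold change -0.62 ± 0.12, adjusted p = 0.00152). Rpl10 went from 40873, 42319 and 40246 to 31349.8, 24455 and 25650.0 (log2 fold change -0.60 ± 0.12, adjusted p = 0.00145). In none of the 3 did a rho0 library reach the lowest TM6 library.

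The P-stalk recruits elongation factors to the ribosome, with Rplp0 as its base and dimers of Rplp1 and Rplp2 as its arms. None of the 3 genes was called in any comparison. Rplp0 had 106232 ± 2459.5 normalized counts (SD, n = 3) in TM6, 131065 ± 14895 in rho0, 114188 ± 7517 in PKO-1 and 122663 ± 11998 in PKO-6. Rplp1 had 32591 ± 1102, 46586 ± 8382, 26609.8 ± 2203 and 37406 ± 6525, and Rplp2 had 18348 ± 1065, 20989 ± 2202, 22423 ± 1853 and 20533 ± 1047. Between the clones, Rplp1 differed at the adjusted p but not at the fold threshold (PKO-1 against PKO-6, log2 fold change -0.49 ± 0.13, adjusted p = 0.00516, edgeR). Rplp2 is uncertain because 15.7% of its 100-base words also occur in Wdr89. Rps27l, a paralog of Rps27 that p53 can induce, had 4134 ± 176 in TM6, 3242 ± 273 in rho0, 3684 ± 232 in PKO-1 and 4309 ± 94.6 in PKO-6 and was not called in any comparison.

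**Figure D3:**
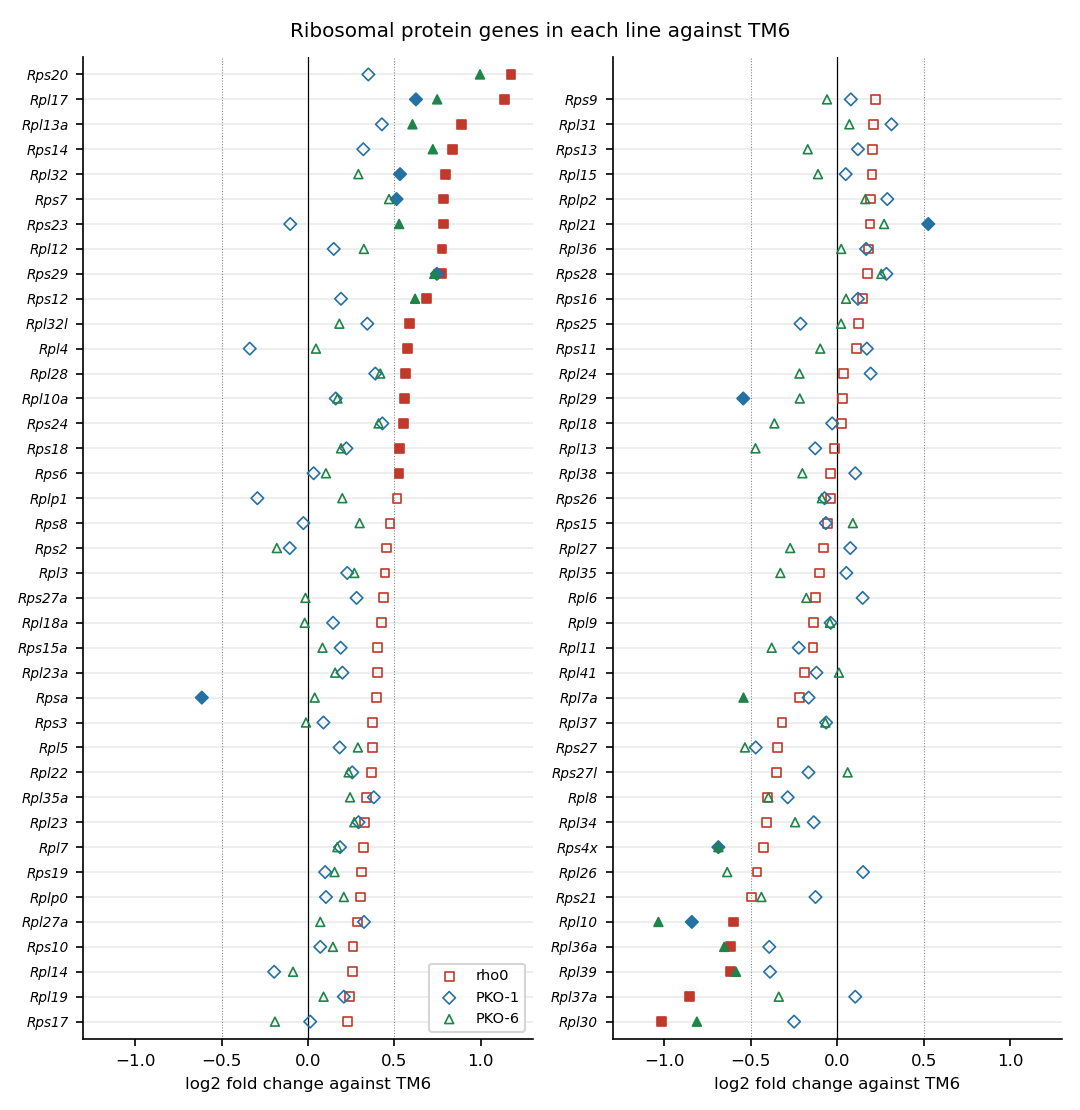
Log2 fold change against TM6 of the ribosomal protein genes, all but 1 of 78, in rho0 (squares), PKO-1 (diamonds) and PKO-6 (triangles), ordered by rho0; filled symbols were called (adjusted p below 0.01 and absolute log2 fold change above 0.5, dotted lines). Filled squares reach 1.17 for Rps20 and -1.02 for Rpl30, and the 3 lines share the TM6 libraries.

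The comparison of PKO with TM6 asked the same of cells in which Pnpt1 had been deleted and mtDNA was lost too. With both clones as 1 group, 3 members (3.85%) were called higher, where 13.5% of all tested genes were, and 3 (3.85%) lower, where 12.2% were. The members' median log2 fold change was 0.054, beside 0.029 over all tested genes, and fell to 0.016 without PKO-1 replicate 2. Both shares lay under the background. At the adjusted p alone, 15 members passed (19.2%, beside 34.4%), 10 higher (12.8%, beside 18.2%) and 5 lower (6.41%, beside 16.2%). Rps29 had 26034, 31017 and 24879 normalized counts in PKO-1 and 28146, 30309 and 22625 in PKO-6, against 15144 to 17037 in TM6 (PKO against TM6, log2 fold change 0.74 ± 0.13, adjusted p = 0.000686). Rpl17 had 46854, 47762 and 40607 in PKO-1 and 47296, 46155 and 53798 in PKO-6, against 26821 to 30717 in TM6 (log2 fold change 0.69 ± 0.087, adjusted p = 5.91e-05). Rpl13a had 30509, 33365 and 28701 in PKO-1 and 36509, 36549 and 31586 in PKO-6 (log2 fold change 0.52 ± 0.10, adjusted p = 0.00134). All 6 PKO libraries lay above TM6 for each of the 3 genes. The log2 fold change of Rpl13a fell below the threshold of 0.5 without TM6 replicate 3, any 1 rho0 library, or PKO-6 replicate 1 or 2 (log2 fold change 0.46 to 0.49, adjusted p 0.000853 to 0.0101).

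The members called lower in PKO were the X-linked Rpl10, Rps4x and Rpl36a. Rpl10 had 23441, 24039 and 21420.4 in PKO-1 and 20813, 21799 and 17636 in PKO-6, against 40246 to 42319 in TM6 (log2 fold change -0.93 ± 0.10, adjusted p = 1.63e-05). Rps4x, a small-subunit protein, had 39471, 41925 and 40300.3 in TM6, 26239, 26615 and 22702 in PKO-1 and 25959, 26445 and 23164 in PKO-6 (log2 fold change -0.69 ± 0.081, adjusted p = 3.42e-05). Rpl36a had 8505, 9419.6 and 7516 in PKO-1 and 6984, 7031 and 7222 in PKO-6 (log2 fold change -0.52 ± 0.10, adjusted p = 0.00160), and its call was lost without TM6 replicate 2 or 3 or PKO-6 replicate 1 or 3 (log2 fold change -0.50 to -0.48, adjusted p 0.00320 to 0.0114). For all 3 genes every PKO library was below every TM6 library.

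Tested singly against TM6, in a fit of the 4 lines, each clone had more members called than the pooled group, and the biological coefficient of variation was 0.0837 in this fit and 0.248 with the clones pooled. PKO-1 had 5 called higher (6.41%, beside 16.4% of all tested genes) and 4 lower (5.13%, beside 17.9%), with a members' median of 0.10 beside 8.6e-04. PKO-6 had 7 higher (8.97%, beside 21.9%) and 6 lower (7.69%, beside 19.4%), with a median of 0.049 beside 0.014. The PKO-1 median ranged from 0.045 without PKO-1 replicate 2 to 0.17 without PKO-1 replicate 3, and the PKO-6 median turned to -0.011 without PKO-6 replicate 2. In either direction 34.3% of all tested genes were called in PKO-1 and 41.3% in PKO-6. At the adjusted p alone, 23 members passed in PKO-1 (29.5%, beside 54.3%), 15 higher (19.2%, beside 27.5%) and 8 lower (10.3%, beside 26.8%). In PKO-6, 28 passed (35.9%, beside 61.0%), 16 higher (20.5%, beside 31.1%) and 12 lower (15.4%, beside 29.8%). Rps29 and Rpl17 were called higher and Rpl10 and Rps4x lower in each clone. In PKO-1, Rpl21, Rpl32 and Rps7 were also called higher, with log2 fold changes of 0.53 ± 0.083, 0.53 ± 0.09 and 0.51 ± 0.077 (adjusted p = 7.79e-05, 0.000139 and 4.96e-05, edgeR). Each lay close to the threshold, and leaving out TM6 replicate 1, among other libraries, took it below 0.5 (Rpl21, 0.44, adjusted p = 0.000927; Rpl32, 0.50, adjusted p = 0.000966; Rps7, 0.46, adjusted p = 0.000447). Rpl21 was also lost without any 1 rho0 library, PKO-1 replicate 1 or 2, or PKO-6 replicate 1 or 2 (log2 fold change 0.44 to 0.50, adjusted p 0.000118 to 0.000927). Rps7 was also lost without any 1 rho0 library, PKO-1 replicate 2, or PKO-6 replicate 1 or 2 (log2 fold change 0.46 to 0.48, adjusted p 5.19e-06 to 0.000447), and Rpl32 without PKO-1 replicate 2 (0.47, adjusted p = 0.00111). Rpl21 shares 5.46% of its 100-base words with BC004004.

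Rpsa and Rpl29, both on chromosome 9, were called lower in PKO-1. Rpsa, a 40S protein also known as the laminin receptor, had 89013, 97008 and 95226 in TM6 and 63892, 64244 and 55631 in PKO-1 (log2 fold change -0.61 ± 0.077, adjusted p = 9.48e-06, edgeR), while PKO-6 had 93476, 98948 and 96552. Rpl29, a large-subunit protein, had 21079, 21738 and 21254 in TM6, 14870.4, 15301 and 13778 in PKO-1 and 18552, 19277 and 17289 in PKO-6 (PKO-1 against TM6, log2 fold change -0.54 ± 0.075, adjusted p = 2.26e-05). Its call was lost without PKO-1 replicate 3 (-0.50, adjusted p = 0.000241). PKO-1 lay below TM6 in every library for both genes.

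In PKO-6, Rps20 was the member called highest, with 46553, 46133 and 36582 normalized counts (log2 fold change 1.00 ± 0.11, adjusted p = 1.91e-06, edgeR), more than in any TM6 library. Rps14, Rps12, Rpl13a and Rps23 were called higher too. Rps14 had 36613, 36611 and 27195 (log2 fold change 0.72 ± 0.12, adjusted p = 0.000141) and Rps12 had 84651, 86376 and 88519.9 (log2 fold change 0.62 ± 0.068, adjusted p = 1.78e-06). Rpl13a had a log2 fold change of 0.60 ± 0.10 (adjusted p = 6.12e-05) and Rps23 of 0.53 ± 0.075 (adjusted p = 2.48e-05). Rps23 fell below the threshold without TM6 replicate 1, any 1 rho0 library, or PKO-6 replicate 1 or 2 (log2 fold change 0.48 to 0.49, adjusted p 2.99e-06 to 0.000243). Rpl30 was called lower with 1697, 1759 and 1586 (log2 fold change -0.81 ± 0.08, adjusted p = 6.54e-07), as was Rpl7a, a large-subunit protein, with 29410.0, 30839 and 27831 against 41809, 43533 and 42919 in TM6 (log2 fold change -0.54 ± 0.08, adjusted p = 3.33e-05). The X-linked Rpl39 and Rpl36a completed the 6, at -0.59 ± 0.094 and -0.65 ± 0.088 (adjusted p = 7.37e-05 and 1.39e-05).

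The clones were also compared with each other, which tests the difference between them directly. In PKO-1 against PKO-6, 1 member (1.28%) was called higher, beside 11.5% of all tested genes, and 3 (3.85%) lower, beside 17.6%. Called in either direction were 29.1% of all tested genes. At the adjusted p alone, 19 members passed (24.4%, beside 50.0%), 10 higher (12.8%, beside 24.6%) and 9 lower (11.5%, beside 25.4%). Rpl30 was higher in PKO-1, with 2581, 2621 and 2244 against 1697, 1759 and 1586 in PKO-6 (log2 fold change 0.56 ± 0.08, adjusted p = 3.73e-05). Rpsa was lower in PKO-1 (log2 fold change -0.65 ± 0.077, adjusted p = 6.14e-06), as were Rps20, with 27328, 29385 and 25914 against 46553, 46133 and 36582 (log2 fold change -0.65 ± 0.11, adjusted p = 0.000158), and Rps23, with 30425, 32276 and 28351 against 47220.0, 47427 and 46269 (log2 fold change -0.63 ± 0.075, adjusted p = 6.96e-06). The clones did not overlap for any of the 4 genes. Rpl26, a protein at the mouth of the exit tunnel, had the largest gap of all members without being called, with 2931, 4139 and 2478 in PKO-1 and 1915, 2319 and 1305 in PKO-6 (log2 fold change 0.79 ± 0.24, adjusted p = 0.0112). Its libraries spread widely within each clone. The smallest gaps were those of Rps4x, Rpl37 and Rpl9, named after their values were seen, with log2 fold changes between the clones of -2.8e-04 ± 0.088, 0.0046 ± 0.13 and 0.0043 ± 0.10.

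Set against rho0, the PKO clones had lower levels of most members. In PKO against rho0 the median log2 fold change of members was -0.16, beside 0.022 over all tested genes, and 61 of 78 lay below 0. The median was -0.092 without rho0 replicate 1 and -0.24 without rho0 replicate 2. Of all tested genes 10.7% were called, and of members 1 was called higher (1.28%, beside 6.33%) and 3 lower (3.85%, beside 4.36%), so neither share exceeded the background. At the adjusted p alone, 9 passed (11.5%, beside 16.9%), 1 higher (1.28%, beside 10.1%) and 8 lower (10.3%, beside 6.82%). Rpl37a was higher in PKO, with 13092, 15165 and 12200.5 in PKO-1 and 10127, 11218 and 8430.2 in PKO-6 (log2 fold change 0.75 ± 0.16, adjusted p = 0.00542, edgeR). The call was lost without rho0 replicate 2 or 3 or PKO-1 replicate 1 or 3 (log2 fold change 0.67 to 0.74, adjusted p 0.0104 to 0.0366) and with a replicate block (adjusted p = 0.0115). Rps2 was lower, with 117904, 126918 and 110321 in PKO-1 and 116614, 123393 and 97285 in PKO-6 against 201190.4, 156945 and 165491 in rho0 (log2 fold change -0.60 ± 0.10, adjusted p = 0.000904). No PKO library reached the lowest rho0 library. Rpl12, of the stalk base, and Rpl4, of the exit tunnel, were lower as well, at -0.54 ± 0.079 and -0.71 ± 0.11 (adjusted p = 0.000544 and 0.000938), and are named here after their values were seen.

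The members lie on 19 chromosomes, and on several of these, described after the values were seen, the other genes had shifted as well. All 4 X-linked members, Rpl10, Rps4x, Rpl36a and Rpl39, were below TM6 in all 3 derived lines, and the median log2 fold change of the other 455 tested X-linked genes was -0.77 in rho0, -0.74 in PKO-1 and -0.87 in PKO-6. For the 4 members these medians were -0.61, -0.54 and -0.67. On chromosome 12, Rps7 and Rps29 had a median of 0.78 in rho0, 0.63 in PKO-1 and 0.60 in PKO-6, beside 0.55, 0.56 and 0.53 for the other 489 genes there. On chromosome 18, Rpl17 and Rps14 had 0.99, 0.47 and 0.74, beside 0.42, 0.42 and 0.34 for the other 380. In each of the 7 members on chromosome 9, PKO-1 was below PKO-6, with a median of -0.33, beside -0.37 for the other 769 genes. Against TM6 those 769 genes had a median of -0.39 in PKO-1, 0.0037 in PKO-6 and 0.038 in rho0. Between the clones the other genes of chromosome 13, which carries Rps23, had a median of -0.41. The other genes of chromosome 15, which carries Rpl30, had a median of -0.38 in rho0, and those of chromosome 8 had -0.43 in PKO-6. The part of chromosome-wide shifts in these calls was not tested.

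With each chromosome's median subtracted from the fold changes before the threshold, 13 members were called higher and 2 lower in rho0 against TM6. In PKO against TM6 and in PKO-1 against TM6 no member was then called, and in PKO-6 against TM6 4 were higher and 1 lower. After the subtraction the X-linked Rpl10, Rpl36a and Rpl39 lay above 0 in rho0, at 0.18, 0.17 and 0.16. Rps20 in rho0 kept a log2 fold change of 1.04, Rpl17 of 0.73, Rpl13a of 0.77 and Rpl30 of -0.62.

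**Figure D4:**
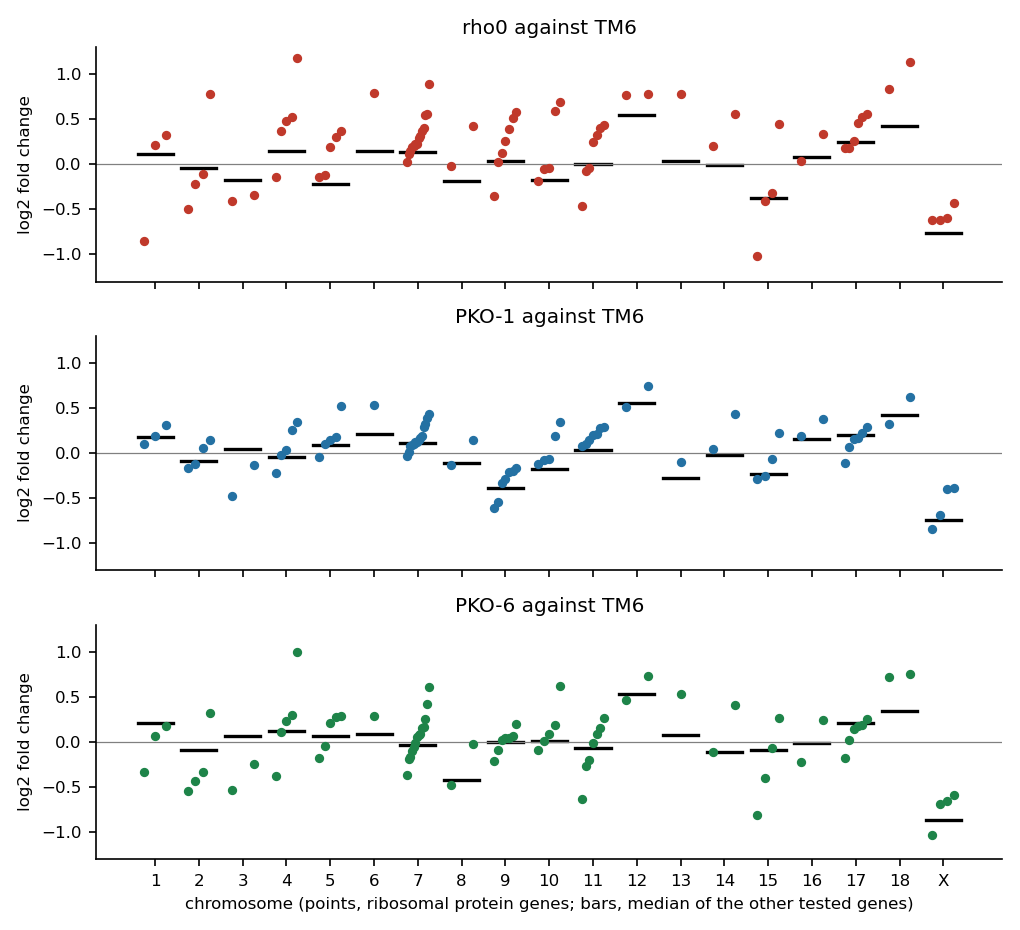
Log2 fold change against TM6 of the ribosomal protein genes (points) by chromosome in rho0, PKO-1 and PKO-6, with the median of the other tested genes of that chromosome (black bars). The X-linked points lie below 0 in all panels, where the bars stand at -0.77, -0.74 and -0.87, and the chromosome 9 points of PKO-1 lie below those of PKO-6.

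The start sites of the members were searched for the pyrimidine run of TOP mRNAs, in RefSeq promoters of GRCm38.p6 that matched 58 of 78 members with 69 promoters. A run was counted on the strand of the gene, in the sense of the mRNA. It began with C and held only C and T. Its full length was counted where at least 1 of its bases lay within 30 bases of the annotated start. A run of at least 8 bases occurred at 63.8% of the members' promoters and at 21.7% of all 32851 promoters, and a run of at least 10 at 49.3% and 11.1%. The median of the longest run was 9 bases for members and 5 for all. In windows of 250 bases before to 50 after the start, on both strands, CCGGAA, the core bound by ETS factors, occurred in 47.8% of the members' promoters and 14.9% of all. GCCATNTT, the core of the YY1 motif, occurred in 21.7% and 6.05%, and CACGTG, the E-box that Myc can bind, in 11.6% and 7.15%. TATAAA occurred in 10.1% and 13.6%.

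Among members called higher in rho0, 10 of the 12 with a promoter in the table had a run of at least 8, as did 3 of the 4 called lower with a promoter and 27 of the 42 not called with one. Windows of 30 bases around the longest run are shown, in GRCm38.p6 coordinates and on the strand of the gene, for members called higher in rho0 (Rpl13a, Rps12, Rps7 and Rpl12), called lower in rho0 (Rpl10, Rpl36a and Rpl37a) and lower in PKO-1 than PKO-6 (Rpsa). The longest run is in capitals, and runs that lay wholly outside the searched bases, such as the first 5 bases printed for Rpl10, were not counted.
Rpl13a (chr7:45128722-45128751, - strand): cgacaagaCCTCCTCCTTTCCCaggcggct
Rps12 (chr10:23787181-23787210, - strand): caccgccggCCTTTTCCCCTgccgccgccg
Rps7 (chr12:28635910-28635939, - strand): tgtccccaCCTCTTTTCTTCCgccacccgg
Rpl12 (chr2:32961702-32961731, + strand): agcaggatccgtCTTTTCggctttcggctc
Rpl10 (chrX:74270781-74270810, + strand): cccctggctgtaaCTCTatggttgttacag
Rpl36a (chrX:134585673-134585702, + strand): ggctctagCCTCTCTCTTTCCgagctgcta
Rpl37a (chr1:72711275-72711304, + strand): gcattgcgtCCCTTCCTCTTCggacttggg
Rpsa (chr9:120127775-120127804, + strand): ccggccgcccgtCCTTTCgcgctacccggg
Among the members called higher, Rpl13a, Rps12 and Rps7 carry runs of 14, 11 and 13 bases and Rpl12 one of 6. Among those called lower, Rpl36a and Rpl37a carry runs of 13 and 12 bases and Rpl10 one of 4, and Rpsa carries one of 6. Long and short runs thus occurred among members called in either direction. Annotated starts can lie some bases from the start a cell uses, and no start was measured here.

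Among members with several transcripts, the widest shift in transcript shares between lines was that of Rps24, a small-subunit protein whose C-terminus depends on the last exons used. One of its transcripts includes a 20-base exon (chr14:24495430-24495449, + strand, GRCm38), and a shorter one skips it. The exon is printed with its 3 coding bases, the stop codon, in capitals and its untranslated bases in lower case, followed by the 12 coding bases with which the last exon begins when it is skipped.
Rps24 exon: TGAgtggagattggatacag
Rps24 last exon, coding start (chr14:24495775-24495786, + strand): CCAAAGGAGTAG
Inclusion thus ends the protein at the exon's first codon, and skipping adds 3 codons before a stop codon. The transcript with this exon as its only optional one took 12.7%, 12.9% and 12.3% of the estimated Rps24 counts in TM6. It took 4.43%, 4.78% and 4.40% in rho0, 22.7%, 23.4% and 23.8% in PKO-1 and 10.9%, 10.0% and 11.3% in PKO-6. The line means were 12.7% ± 0.303, 4.54% ± 0.207, 23.3% ± 0.540 and 10.7% ± 0.651 (SD, n = 3), and no 2 lines overlapped. Total Rps24 rose in rho0 (log2 fold change 0.55 ± 0.082, adjusted p = 0.000202, edgeR) and stayed under the fold threshold in the clones (0.43 ± 0.076 and 0.41 ± 0.076).

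**Figure D5:**
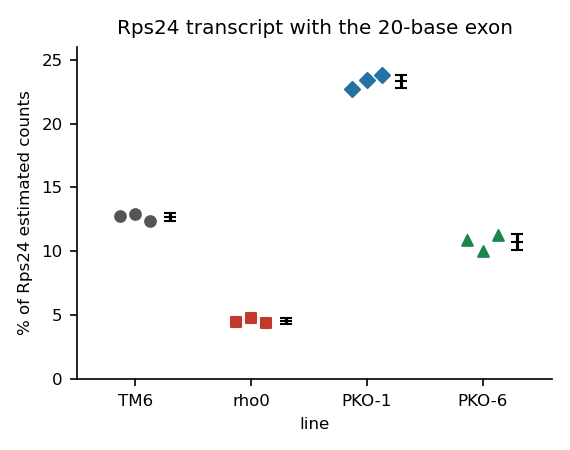
Percent of the estimated Rps24 counts on the transcript with the 20-base exon in each library, by line, with the line mean ± SD (n = 3). rho0 libraries lie below 5%, TM6 and PKO-6 between 10% and 13%, and PKO-1 above 22%.

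Rps27a, which encodes ubiquitin fused to a 40S protein, has a second transcript with 1 exon fewer, which took 6.32%, 6.19% and 6.00% of its estimated counts in TM6, 3.04%, 3.09% and 3.42% in rho0, 6.35%, 5.59% and 6.75% in PKO-1 and 3.38%, 3.43% and 3.66% in PKO-6. TM6 and PKO-1 overlapped, as did rho0 and PKO-6, and the first pair lay above the second. The shares of both genes are estimates from RSEM that carry its own error, were picked from 12 members with more than 1 transcript after their values were seen, and were not tested.

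Some ribosomal protein genes carry symbols outside the rule. Of 8 such genes tested, 1 higher and 0 lower were called in rho0 against TM6 and 0 higher and 1 lower in PKO against TM6, 1 of 8 in each case, where 29.3% and 25.7% of all tested genes were called in either direction. Rack1, the 40S scaffold for kinase signalling, was higher in rho0, with 53120.0 ± 7029 normalized counts (SD, n = 3) against 37039 ± 801 in TM6 (log2 fold change 0.52 ± 0.10, adjusted p = 0.00150, edgeR). Rpl22l1, a paralog of Rpl22, was lower in PKO (log2 fold change -0.61 ± 0.15, adjusted p = 0.00598). Fau, which encodes a ribosomal protein fused to a ubiquitin-like protein, was at a log2 fold change of 0.35 in rho0 and was not called in any comparison.

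Of 20 translation factors and other TOP mRNAs, 5 higher and 3 lower were called in rho0, with a median log2 fold change of 0.077, and 0 higher and 2 lower in PKO against TM6. In either direction these were 40.0% and 10.0%, beside 29.3% and 25.7% of all tested genes, and the higher calls in rho0 were 25%, beside 13.7%. Eif4a2, an RNA helicase of initiation, and Npm1, a nucleolar chaperone, were the highest in rho0 (log2 fold change 0.87 ± 0.13, adjusted p = 0.000260, and log2 fold change 0.83 ± 0.14, adjusted p = 0.000565). The X-linked Eif2s3x, a subunit of eIF2, was lower in rho0 and in PKO (log2 fold change -0.89 ± 0.18, adjusted p = 0.00145, and log2 fold change -0.87 ± 0.15, adjusted p = 0.000459). Of 20 genes of RNA polymerase I transcription, 2 higher and 3 lower were called in rho0 and 2 higher and 0 lower in PKO (25% and 10.0% in either direction, beside the same 29.3% and 25.7%). Of 106 tested ribosome assembly factors, 6 higher and 6 lower were called in rho0 and 1 higher and 6 lower in PKO, with medians of 0.046 and 0.03. Their shares called in either direction, 11.3% and 6.6%, lay under the background of 29.3% and 25.7%. Tsr2, an X-linked gene whose product escorts Rps26 to the nascent subunit, was the lowest of these in both (log2 fold change -1.24 ± 0.088, adjusted p = 1.19e-06, and log2 fold change -1.45 ± 0.072, adjusted p = 5.16e-08).

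Of 34 genes of mTORC1 and Larp1 control, 2 higher and 9 lower were called in rho0 and 3 higher and 9 lower in PKO. In either direction these were 32.4% and 35.3%, beside 29.3% and 25.7% of all tested genes, and the lower calls were 26.5% in each, beside 15.6% and 12.2%. Sesn2, an inhibitor of mTORC1 that senses leucine, had 1076 ± 86.5 normalized counts in TM6, 6966 ± 742 in rho0, 2803 ± 118 in PKO-1 and 7474 ± 800.0 in PKO-6. It was higher in rho0 (log2 fold change 2.69 ± 0.45, adjusted p = 0.000479, edgeR) and in each clone (PKO-1, log2 fold change 1.38 ± 0.094, adjusted p = 2.08e-08, and PKO-6, log2 fold change 2.79 ± 0.10, adjusted p = 1.22e-11). Deptor, which binds and inhibits mTOR, was lower in rho0 and PKO (log2 fold change -2.45 ± 0.14, adjusted p = 2.02e-07, and log2 fold change -1.33 ± 0.11, adjusted p = 2.01e-06). Larp1 was not called in any comparison, at -0.11 in rho0 and -0.23 in PKO. Of 12 tested genes of the Myc network, 1 higher and 2 lower were called in rho0 and 2 higher and 2 lower in PKO (25% and 33.3%, beside 29.3% and 25.7%). Myc had 5885 ± 253 in TM6, 11498 ± 462 in rho0, 8074 ± 231 in PKO-1 and 9999.6 ± 510.0 in PKO-6, and was called higher in rho0 and in PKO (log2 fold change 0.97 ± 0.11, adjusted p = 3.26e-05, and log2 fold change 0.62 ± 0.10, adjusted p = 0.000293). Singly, it was called in PKO-6 (log2 fold change 0.76 ± 0.055, adjusted p = 2.50e-08) and stayed under the fold threshold in PKO-1 (log2 fold change 0.46 ± 0.055, adjusted p = 6.63e-06). Mxd4, a repressor that competes with Myc for its partner Max, was lower in both (log2 fold change -1.88 ± 0.25, adjusted p = 8.53e-05, and log2 fold change -1.32 ± 0.20, adjusted p = 0.000212). The other gene called higher in PKO was Mxi1 (log2 fold change 0.96 ± 0.057, adjusted p = 1.91e-07, edgeR). The others called lower were Mxd3 in rho0 (-1.47 ± 0.32, adjusted p = 0.00252) and Mnt in PKO (-0.67 ± 0.082, adjusted p = 4.65e-05). Mycl had 29.9 ± 6.97 normalized counts in TM6, 2.52 ± 2.43 in PKO-1 and 342 ± 29.6 in PKO-6. It was lower in PKO-1 (-3.48 ± 0.38, adjusted p = 2.57e-06, edgeR) and higher in PKO-6 (3.52 ± 0.20, adjusted p = 1.74e-09, edgeR). The PKO-1 counts lie near 0, so the size of that fold change is uncertain.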

How the data were processed

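RNA from 12 cultures, 3 per line, was depleted of rRNA and sequenced with a stranded kit in paired reads, and each library merged technical duplicates. The authors aligned the reads to RefSeq transcripts of mm10 and deposited estimated counts per gene, together with estimated counts, TPM and effective length per transcript for each library. The submitters' processing notes name bcl2fastq, RSEM 1.2.25, Bowtie, Bowtie2 and DESeq2 1.18.1. Whether single libraries were extracted with TriZol or RNeasy is not given in the sources used here. RSEM divides reads that fit several genes among them, so near-identical copies are uncertain, and all values are relative to the library total. Counting error is small at these depths, and the number of libraries limits precision.

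Here the deposited estimated counts were rounded to whole numbers, filtered with edgeR's filterByExpr at a minimum count of 10, which kept 14026 genes and all 78 members, scaled by TMM and fitted with edgeR 4.0.16 (quasi-likelihood test, Benjamini-Hochberg adjustment over all tested genes) in R 4.3.3. rho0 and PKO were compared in a fit of 3 groups, TM6, rho0 and PKO, and each clone in a fit of the 4 lines. The biological coefficient of variation was 0.248 in the first and 0.0837 in the second. The deposited TPM served for shares, for ranks of abundance and for the order of levels, and the effective lengths for levels per kilobase.

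All comparisons against TM6 share its 3 libraries. The 3 replicates of a line are cultures of one line, so p-values from the fit with every line separate measure the spread between cultures. In the fit of 3 groups, which gave the rho0 and pooled PKO p-values, the difference between the PKO clones counts as spread too. A p-value of rho0 against TM6 therefore also depends on how far the clones differ in that gene. The members and gene lists were chosen with earlier results of these data known. Members named were those called against TM6 or between the clones (up to the 6 largest in each direction of each comparison), the P-stalk, Rpsa, the paralogs, the 5 highest and 5 lowest levels per length, and the 3 largest and 3 smallest gaps between the clones. From the other lists, the 2 largest called changes in each direction and a few fixed genes could be named. Genes outside these are marked where they appear, and a few genes are not reported here. Both fits were tested on simulated counts of 14026 genes with 200 changed. Alternatives were DESeq2 1.42.0 size factors and Wald test, TMM without the members, no filter, a replicate block, other thresholds, removal of chromosome medians or of a trend with transcript length, other groups in the fit, and each library left out.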

Additional observations from a re-analysis of the deposited data

Results flagged for a closer look

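In the 6 PKO libraries, 34 measures were checked for a library far from the others, the counts of 33 members and the members' share, and 1 held such a library, where chance gives about 1 in 20. The gap between the lowest Rpl34 value, that of PKO-6 replicate 3 (1509.6 normalized counts), and the next was 0.682 of the whole range. PKO-6 replicate 3 also had the longest fragments of its line (195.1 bases), whose part was not tested. Rpl34 was not called in any comparison with PKO.

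The effects of 4 members against TM6 differed between the 2 Pnpt1-deleted clones by a test of the difference itself (PKO-1 against PKO-6, edgeR's quasi-likelihood test). The log2 difference was -0.63 for Rps23, 0.56 for Rpl30, -0.65 for Rps20 and -0.65 for Rpsa. Rpsa lies on chromosome 9, where the other genes had a median difference of -0.37, and Rps23 on chromosome 13, where it was -0.41. With chromosome medians subtracted, Rpsa, Rps20 and Rps23 lost the call between the clones and Rpl30 kept it, and Rpl30 lost it with a trend in transcript length removed. The part of these shifts in the differences was not tested.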

How the results depend on the processing

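The counts of called members (main values 23 in rho0 against TM6, 6 in PKO against TM6, 4 in PKO against rho0, 9 in PKO-1, 13 in PKO-6 and 4 between the clones) moved with the threshold. An adjusted p below 0.01 alone called 35, 15, 9, 23, 28 and 19 members in that order, and an absolute log2 fold change above 1 called 3, 0, 0, 0, 1 and 0. Removing chromosome medians left 15, 0, 2, 0, 5 and 1. PKO against rho0 called 8 with 4 lines fitted separately. Leaving out 1 library gave 16 to 23, 4 to 9, 3 to 6, 6 to 9, 13 to 15 and 4 to 6. The medians of members then lay at 0.12 to 0.27, 0.016 to 0.080, -0.24 to -0.092, 0.045 to 0.17, -0.011 to 0.080 and 0.0091 to 0.11, with the sign change in PKO-6 without its replicate 2. The shares of counts were 3.89% in TM6, 4.86% in rho0, 4.06% in PKO-1 and 4.25% in PKO-6 with Rn45s in the total, and 4.56% to 4.62%, 5.59% to 6.05%, 4.62% to 4.88% and 5.02% to 5.19% with 1 library left out.

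Of the single members under each alternative, 906 results stayed on their side of the threshold, 97 lost the call and 10 changed sign. All 10 came from removing chromosome medians: Rpl10 (0.18), Rpl36a (0.17) and Rpl39 (0.16) in rho0, Rpl36a (0.29) and Rps4x (0.12) in PKO, Rps4x (0.052) and Rps7 (-0.045) in PKO-1, and Rpl36a (0.23), Rpl39 (0.30) and Rps4x (0.20) in PKO-6. Removing a trend with transcript length ended the calls of Rpl36a and Rpl39 in rho0, Rpl32 in PKO-1 and Rpl30 between the clones. DESeq2 size factors and the DESeq2 Wald test each ended the calls of Rpl13a in PKO and Rps7 in PKO-1. TMM without the members ended both, and also Rpl21 in PKO-1 and Rps23 in PKO-6. With only the compared groups fitted, Rps7 in PKO-1, Rps23 in PKO-6 and Rpl37a in PKO against rho0 lost the call. Without a filter, Rps7 in PKO-1 and Rps23 in rho0 lost it. The causes were not tested.

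The 3 pairs of TM6 and PKO-6 libraries with the same number had deviations that correlated at 0.17 to 0.23, and in no other pair of lines did all 3 exceed 0.1. Over all lines, 10 of 18 same-numbered pairs exceeded 0.1 (-0.34 to 0.23, median 0.11), as did 10 of 36 pairs with different numbers (median -0.032). The main fits have no block. Adding the replicate block changed no call of a named member in PKO-6 against TM6. With a replicate block, 21, 6, 3, 9, 13 and 5 members were called, with medians of 0.23, 0.052, -0.15, 0.10, 0.046 and 0.055. Rps23 in rho0 (adjusted p = 0.0189, edgeR) and Rpl37a in PKO against rho0 (adjusted p = 0.0115) lost their calls.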
